A study of Mus musculus with 10 samples.

Results

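Glucagon receptor blockade in mice was followed through 10 islet genes that hold back or drive entry into cell division. They were Cdkn1a, Cdkn1b, Cdkn1c, Cdkn2a, Cdkn2b and Cdkn2c, which encode inhibitors of cyclin-dependent kinases (CDKs), Men1, which encodes menin, and Ccnd1, Ccnd2 and Ccnd3, which encode the D cyclins. They were chosen by symbol, and all 10 were among the 24475 genes of the deposited table. The islets came from C57BL/6 mice. A first group of 5 libraries came from animals treated with REGN1193 (R1193), a blocking antibody to GCGR, the glucagon receptor, and a second of 5 libraries from animals treated with an isotype control antibody. The study is about the alpha cell hyperplasia that this blockade induces. The labels give no dose, duration, age or sex, and do not say whether each library came from a separate mouse, so each p-value covers library-to-library spread, which may be technical. Whole islets were sequenced, so fewer cells of a type and less RNA per cell cannot be told apart.

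D cyclins bind CDK4 and CDK6, and the active kinases phosphorylate the retinoblastoma protein, which releases E2F factors and commits a cell to DNA synthesis. The products of Cdkn2a (p16), Cdkn2b (p15) and Cdkn2c (p18) block CDK4 and CDK6 themselves, while those of Cdkn1a (p21), Cdkn1b (p27) and Cdkn1c (p57) bind complexes of a cyclin and a CDK. Menin, a tumour suppressor whose loss causes islet tumours in mice and people, works with histone methyltransferases that keep Cdkn1b and Cdkn2c expressed. In the mouse islet, Ccnd2 is known as the D cyclin that beta cells need for growth after birth.

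None of the cell cycle genes passed the test over all genes. Levels are in RPKM, reads scaled by transcript length and sequencing depth, and differences are R1193 minus isotype on the log2(RPKM + 0.5) scale, tested with limma at an adjusted p of 0.05. Of the 10 genes 9 had a mean of at least 0.5 RPKM and were tested, and 0 of the 9 passed. Of all 13450 tested genes 0.409% passed, 0.394% with R1193 higher and 0.0149% with R1193 lower. The adjusted p of the 9 genes ran from 0.565 for Ccnd2 to 0.983 for Cdkn1a. The widest differences were a lower Ccnd2, the most abundant of the 10, a lower Ccnd1 and a higher Cdkn2c. At an unadjusted limma p under 0.05, 1 of the 9 was higher (Cdkn2c) and 1 lower (Ccnd2), where 2.84% of all tested genes were higher and 4.18% lower (7.02% together). With an exact permutation test per gene adjusted over all tested genes, 0 of the 9 passed, but this test could not decide the question. Its p cannot fall below 0.00794 with 252 assignments, and 0 of all 13450 tested genes passed it. The median log2 difference of the 9 genes was -0.12, and that of all tested genes was -0.07.

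**Figure D1:**
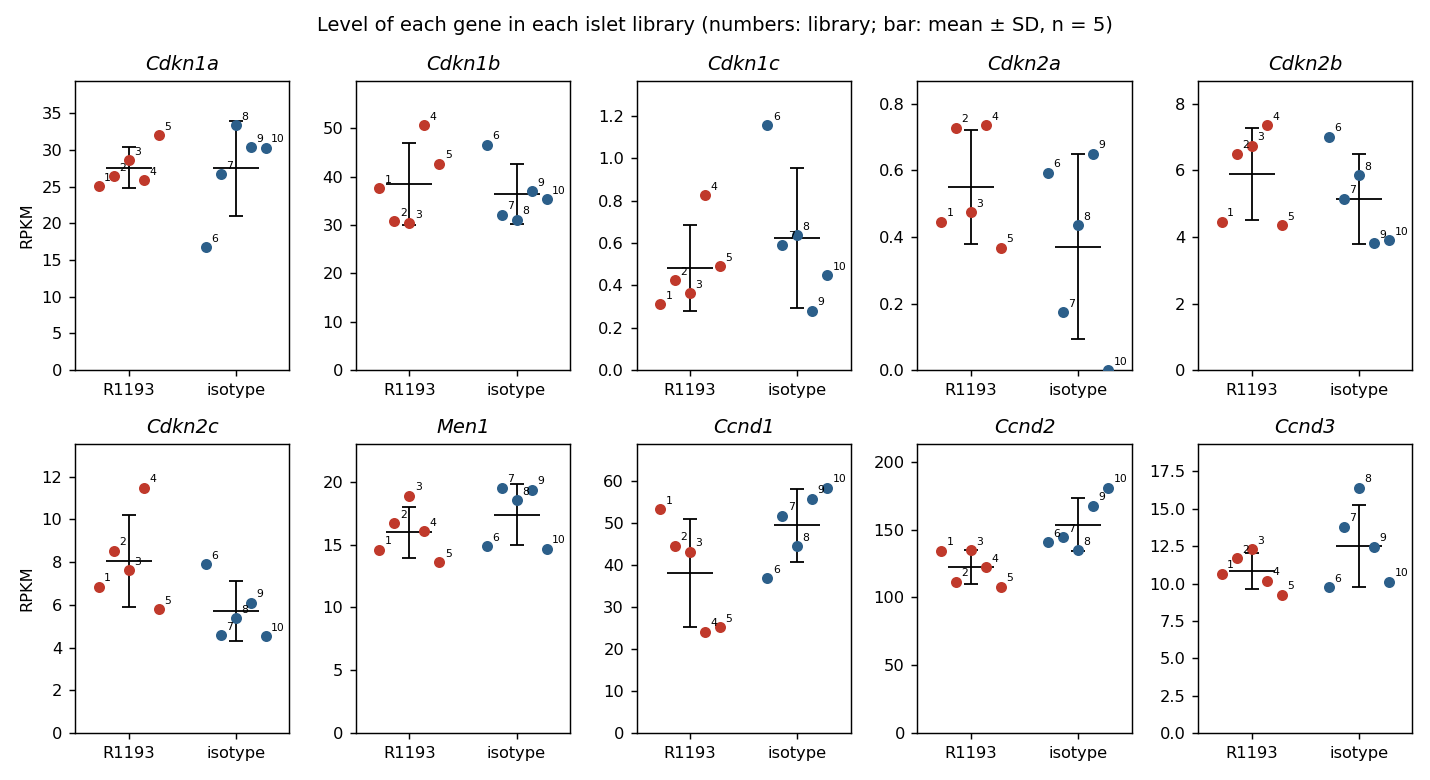
RPKM of each of the 10 genes (vertical axes, from 0) in the R1193 libraries 1 to 5 (left, red) and the isotype libraries 6 to 10 (right, blue); points are libraries and bars are the mean ± SD (n = 5). The groups overlapped in every gene except Ccnd2, where the highest R1193 and the lowest isotype library were 0.0970 RPKM apart.

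The libraries had an estimated 12.3 to 17.99 megareads. Alpha cell markers separated the groups, with 6 of 7 higher in R1193 over all genes, and the summed RPKM of the list ran from 55138 to 84245 in R1193 and from 10177 to 18164 in isotype libraries. Gcg, which encodes glucagon, was at 50503 to 76928 RPKM in R1193 and at 9513 to 17038 RPKM in isotype libraries. Beta cell markers had negative differences in 10 of 10 (9 of 10 after median centring, quantile normalization or trimmed mean scaling), none past the test. Of all tested genes 66.5% were negative. Summed beta cell RPKM was 198855 to 356297 in R1193 and 298355 to 472087 in isotype libraries. Acinar markers from digestive tissue were present in every library and had a negative difference in 9 of 9 (8 of 9 after median centring), none past the test. Their summed RPKM was 3076 to 10072 in R1193 and 2421 to 13934 in isotype libraries, and that of the duct markers was 287 to 1070 in R1193 and 318 to 580 in isotype libraries. All 4 delta cell markers had positive differences at an unadjusted limma p under 0.05, none past the adjusted test (median 0.70, lowest adjusted p = 0.187), with summed RPKM of 3701 to 9711 in R1193 and 2047 to 4969 in isotype libraries. Both PP cell markers were at 0.72 on the log2 scale, not past the test, with sums of 4111 to 12901 RPKM in R1193 and 3173 to 6339 RPKM in isotype libraries. Markers of the endothelial, macrophage, lymphocyte, mesenchymal and Schwann lists had 0 calls. The part of these shifts in the levels below was not tested, except where a fit with a marker level as covariate is given.

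Across all 10 libraries the order of mean levels was Ccnd2 (138 RPKM), Ccnd1 (43.7), Cdkn1b (37.4), Cdkn1a (27.5), Men1 (16.7), Ccnd3 (11.7), Cdkn2c (6.88), Cdkn2b (5.51), Cdkn1c (0.553) and Cdkn2a (0.460). RPKM is scaled by length, so these levels can be compared between genes roughly, but the lengths used were not given. Annotated transcripts run from 922 to 1913 bases for Cdkn1a and from 1106 to 2471 bases for Cdkn2c, so close ranks are uncertain. Ccnd2 exceeded Ccnd1 in 10 of 10 libraries, Cdkn1a exceeded Men1 in 10 of 10, Men1 exceeded Ccnd3 in 10 of 10, and Cdkn2b exceeded Cdkn1c in 10 of 10. The order was not kept in every library between Ccnd1 and Cdkn1b (7 of 10), Cdkn1b and Cdkn1a (9 of 10), Ccnd3 and Cdkn2c (9 of 10), Cdkn2c and Cdkn2b (8 of 10), or Cdkn1c and Cdkn2a (6 of 10).

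The inhibitors of the CDKN1 family were carried by Cdkn1a and Cdkn1b, with Cdkn1c near the limit of detection. Cdkn1a encodes p21, the inhibitor that p53 switches on, and lies on chromosome 17 from 29090979 to 29100722 (RefSeq, GRCm38.p6). It has 2 annotated starts 2790 bases apart. The 250 bases before the first start are shown because they hold the pair of CATG cores that mark adjacent p53 half-sites, spelled CATGNNNNNNCATG (the same on both strands), with the whole run in capitals. The match begins 48 bases before this start and 2838 bases before the second one, and this spacing was searched with the window in view. Of 32851 windows of the same length before RefSeq starts, 0.490% hold such a pair. A match describes letters and is no measured binding site. The window is chr17:29090729-29090978 on the plus strand.
Cdkn1a first start: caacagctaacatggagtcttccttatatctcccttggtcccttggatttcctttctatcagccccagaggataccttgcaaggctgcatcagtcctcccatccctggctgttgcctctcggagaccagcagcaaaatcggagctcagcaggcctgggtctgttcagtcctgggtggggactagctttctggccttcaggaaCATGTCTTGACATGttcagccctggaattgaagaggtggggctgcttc

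Cdkn1a had 25.04, 26.4, 28.6, 25.8 and 32.0 RPKM in R1193 libraries 1 to 5, against 16.7, 26.7, 33.4, 30.3 and 30.3 RPKM in isotype libraries 6 to 10. The R1193 values lay inside the isotype range, and isotype library 6 was the lowest of all. The means were 27.6 ± 2.80 and 27.5 ± 6.46 RPKM (SD, n = 5 each), a log2 difference of 0.04 (SE 0.17, limma adjusted p = 0.983). Without isotype library 6 the difference was -0.13 (SE 0.11).

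Cdkn1b encodes p27, an inhibitor that holds differentiated islet cells out of the cycle, and lies on chromosome 6 from 134920401 to 134925525. It stood at 37.6, 30.8, 30.4, 50.6 and 42.7 RPKM in R1193 libraries 1 to 5, against 46.6, 32.2, 31.1, 37.0 and 35.3 RPKM in isotype libraries 6 to 10. The groups overlapped over nearly their whole range, with the highest values in R1193 libraries 4 and 5 and isotype library 6. The log2 difference was 0.06 (SE 0.16, limma adjusted p = 0.959), and 2 SE on either side allowed 0.836-fold to 1.31-fold. Without R1193 library 4 it was -0.04.

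Cdkn1c encodes p57, an imprinted inhibitor expressed from the maternal copy, and lies on chromosome 7 from 143458339 to 143461059. It had 0.310, 0.426, 0.364, 0.825 and 0.492 RPKM in R1193 libraries 1 to 5, against 1.16, 0.593, 0.637, 0.282 and 0.449 RPKM in isotype libraries 6 to 10. Both groups spread over more than their difference, which was -0.17 on the log2 scale (SE 0.22, limma adjusted p = 0.914). An estimated 7.8 to 27.7 reads per library lay behind these values. Cdkn1c averaged 0.483 RPKM in R1193 and 0.6235 RPKM in isotype libraries. It thus reached the minimum mean of 0.5 RPKM only through the group where it was higher, and its difference is a description only. Without isotype library 6 the difference was -0.017, and with the acinar covariate it was 0.0.

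The inhibitors of CDK4 and CDK6 lay below Cdkn1a and Cdkn1b in level, and Cdkn2c gave the widest difference upward of the 10. Cdkn2c encodes p18 and lies on chromosome 4 from 109660876 to 109666756. It had 6.85, 8.54, 7.63, 11.5 and 5.81 RPKM in R1193 libraries 1 to 5, against 7.91, 4.59, 5.38, 6.09 and 4.53 RPKM in isotype libraries 6 to 10. All 5 R1193 libraries exceeded the isotype median, but isotype library 6 lay above R1193 libraries 1, 3 and 5, so the groups overlapped. The means were 8.06 ± 2.16 and 5.70 ± 1.39 RPKM (SD, n = 5 each), a log2 difference of 0.46 (SE 0.19, limma adjusted p = 0.649). The two-sided exact permutation p for this gene alone was 0.0635, 1 of 10 such tests whose p-values are unadjusted. The exact p was 0.0238 to 0.127 over 15 alternatives, under 0.05 in 3 of them. With the beta cell covariate described below for Ccnd2, the difference was 0.86 (SE 0.18, limma adjusted p = 0.1003).

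Cdkn2b encodes p15, which responds to TGF-beta, and lies on chromosome 4 from 89306289 to 89311032, 11670 bases beyond Cdkn2a. It had 4.45, 6.503, 6.73, 7.36 and 4.35 RPKM in R1193 libraries 1 to 5, against 7.01, 5.15, 5.85, 3.81 and 3.91 RPKM in isotype libraries 6 to 10. The groups overlapped, with R1193 library 4 and isotype library 6 the highest of their groups. The log2 difference was 0.18 (SE 0.19, limma adjusted p = 0.888). It was 0.09 without isotype library 9 and 0.29 without isotype library 6, and 0.54 (SE 0.21) with the beta cell covariate.

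Cdkn2a lies on chromosome 4 from 89274473 to 89294619 and makes 2 proteins from starts 12427 bases apart: the upstream start gives p19Arf, which stabilises p53, and the downstream start gives p16, known to build up in beta cells with age. A gene-level RPKM adds both, and the 250 bases before each start are shown because the reads behind this row cannot be given to either. The motif searched was the E2F word in its spellings TTTCCCGC, TTTCGCGC, TTTGCCGC and TTTGGCGC, on both strands, which 1.86% of the 32851 windows hold. It was found once before the Arf start, in capitals and 99 bases upstream, and in 0 places before the p16 start. The windows are chr4:89294620-89294869 and chr4:89282193-89282442, both read on the minus strand.
Cdkn2a Arf start: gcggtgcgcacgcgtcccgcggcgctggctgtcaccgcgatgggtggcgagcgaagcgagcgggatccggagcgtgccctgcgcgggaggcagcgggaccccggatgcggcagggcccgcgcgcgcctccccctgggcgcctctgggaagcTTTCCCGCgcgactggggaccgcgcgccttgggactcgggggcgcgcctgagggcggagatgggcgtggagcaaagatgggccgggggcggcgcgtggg
Cdkn2a p16 start: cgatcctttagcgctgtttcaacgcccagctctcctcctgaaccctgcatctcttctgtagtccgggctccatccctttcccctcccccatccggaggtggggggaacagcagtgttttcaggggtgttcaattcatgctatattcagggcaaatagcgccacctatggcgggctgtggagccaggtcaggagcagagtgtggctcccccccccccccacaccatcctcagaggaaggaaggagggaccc

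Cdkn2a was the gene that missed the minimum mean of 0.5 RPKM. It had 0.445, 0.728, 0.474, 0.735 and 0.367 RPKM in R1193 libraries 1 to 5, against 0.593, 0.174, 0.435, 0.650 and 0 RPKM in isotype libraries 6 to 10. The groups overlapped, and isotype library 10 was listed at 0. At most an estimated 9.6 reads per library lay behind these values, and the two-sided exact permutation p was 0.262 (n = 5 each).

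The RNA level of Men1, which encodes menin, did not differ beyond the spread. Men1 lies on chromosome 19 from 6334979 to 6340894. It had 14.6, 16.7, 18.9, 16.1 and 13.6 RPKM in R1193 libraries 1 to 5, against 14.9, 19.5, 18.6, 19.4 and 14.7 RPKM in isotype libraries 6 to 10. Both groups covered nearly the same range. The log2 difference was -0.12 (SE 0.13, limma adjusted p = 0.888), and 2 SE on either side allowed 0.775-fold to 1.10-fold. It was -0.063 without R1193 library 5, -0.0405 after median centring and 0.035 with the beta cell covariate.

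**Figure D2:**
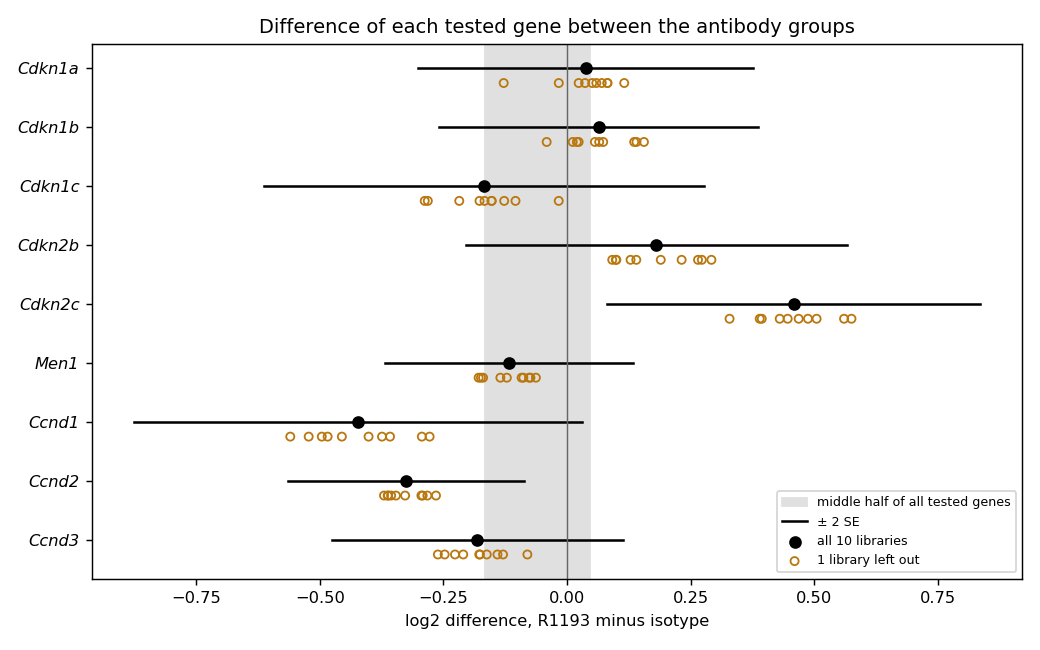
Log2 difference of R1193 minus isotype (horizontal axis) for the 9 tested genes; black points use all 10 libraries, lines are ± 2 SE, and open circles leave out 1 library each. Grey marks the quartiles of all tested genes, -0.17 to 0.05. With any single library left out, the Ccnd1, Ccnd2, Ccnd3, Men1 and Cdkn1c points lay left of 0 and Cdkn2b and Cdkn2c right of it. Cdkn1a and Cdkn1b crossed 0. Cdkn1c reached the minimum mean of 0.5 RPKM only through the isotype libraries.

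The D cyclins all had negative differences, none past the test. Negative differences made up 66.5% of all tested genes. Ccnd2, on chromosome 6 from 127125162 to 127152188, had 134.6, 112, 135, 122 and 108 RPKM in R1193 libraries 1 to 5, against 141, 144, 135, 168 and 181 RPKM in isotype libraries 6 to 10. Every R1193 library lay below every isotype library, but R1193 library 3 and isotype library 8 were only 0.0970 RPKM apart. Groups that did not overlap with R1193 lower were found in 0.840% of all tested genes.

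Ccnd2 averaged 122 ± 12.6 RPKM in R1193 and 154 ± 19.7 RPKM in isotype libraries (SD, n = 5 each), a ratio of 0.795. The log2 difference was -0.33 (SE 0.12, limma adjusted p = 0.565). The two-sided exact permutation p for Ccnd2 alone was 0.00794, the smallest that 252 assignments allow and unadjusted for the 10 genes tested this way. Over 15 alternatives it was 0.00794 to 0.0318, the highest without isotype library 9 or 10. The groups overlapped after median centring and after trimmed mean scaling, both of which narrowed the difference, to -0.25 and -0.27. Summed beta cell levels ran lower in R1193 but overlapped between the groups, as given above, with no marker past the test. A fit with the mean beta marker level as covariate was added after seeing the data. Its difference for Ccnd2 was -0.33 (SE 0.16, limma adjusted p = 0.380).

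Ccnd1, on chromosome 7 from 144929931 to 144939831, had 53.2, 44.5, 43.1, 24.1 and 25.2 RPKM in R1193 libraries 1 to 5, against 36.8, 51.7, 44.4, 55.7 and 58.3 RPKM in isotype libraries 6 to 10. R1193 libraries 1 to 3 lay inside the isotype range, and libraries 4 and 5 lay below all others. The means were 38.0 ± 12.8 and 49.4 ± 8.79 RPKM (SD, n = 5 each), a log2 difference of -0.42 (SE 0.23, limma adjusted p = 0.766). Without R1193 library 4 the difference was -0.28, and without library 5 it was -0.29. Without library 5 and isotype library 10 together it was -0.23.

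Within R1193, summed duct and acinar marker levels differed between the libraries that were high and low in Ccnd1. Summed duct RPKM was 364 and 287 in R1193 libraries 4 and 5 and 318 in isotype library 6, the 3 lowest of the 10, and these were the libraries with the highest Cdkn1b. The duct list did not move as one: 3 of its 6 tested genes had negative group differences, from -1.32 to 0.77 over the list. The duct keratin gene Krt19 was at 11.5, 28.2, 22.3, 27.8 and 42.8 RPKM in R1193 libraries 1 to 5, against 24.5, 65.2, 90.9, 56.2 and 108 RPKM in isotype libraries 6 to 10. Within R1193 it was thus highest in library 5 and lowest in library 1, which had the highest Ccnd1. Acinar markers summed to 6572 and 10072 RPKM in R1193 libraries 4 and 5, against 3076 to 3437 RPKM in R1193 libraries 1 to 3. In isotype libraries 6 to 10 acinar markers summed to 9350, 9505, 13934, 2421 and 8724 RPKM. Within this group libraries 9 and 10 were highest in Ccnd1 and had the lowest acinar sums. Library 8, with 44.4 RPKM of Ccnd1, had the highest acinar sum. Library 6, the lowest of the group in Ccnd1, had neither the highest nor the lowest. With the duct level as covariate the Ccnd1 difference was -0.34, and with the acinar level it was -0.64 (SE 0.21, limma adjusted p = 0.382). The Cdkn1b difference was -0.05 with the duct covariate.

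Ccnd3, on chromosome 17 from 47505051 to 47599689, had 10.7, 11.7, 12.3, 10.2 and 9.26 RPKM in R1193 libraries 1 to 5, against 9.74, 13.8, 16.4, 12.5 and 10.1 RPKM in isotype libraries 6 to 10. All 5 R1193 libraries lay below the isotype median and inside or near the isotype range. The log2 difference was -0.18 (SE 0.15, limma adjusted p = 0.863). It was -0.08 without isotype library 8 and -0.066 with the beta cell covariate.

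The D cyclin sum averaged 171 ± 23.2 RPKM in R1193 and 216 ± 26.4 RPKM in isotype libraries (SD, n = 5 each), with Ccnd2 the main share in both. Summed D cyclin RPKM was 198, 168, 190.3, 157 and 142 in R1193 libraries 1 to 5, against 187, 209.8, 196, 236 and 249 in isotype libraries 6 to 10. The sums overlapped, since R1193 libraries 1 and 3 exceeded isotype library 6. Ccnd2 made up 71.8% ± 5.01 of the sum in R1193 and 71.3% ± 2.65 in isotype libraries (SD, n = 5 each). Ccnd1 made up 21.8% ± 5.15 in R1193 and 22.8% ± 1.88 in isotype libraries, and Ccnd3 6.36% ± 0.592 in R1193 and 5.90% ± 1.65 in isotype libraries. These sums and shares are descriptions with no test.

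**Figure D3:**
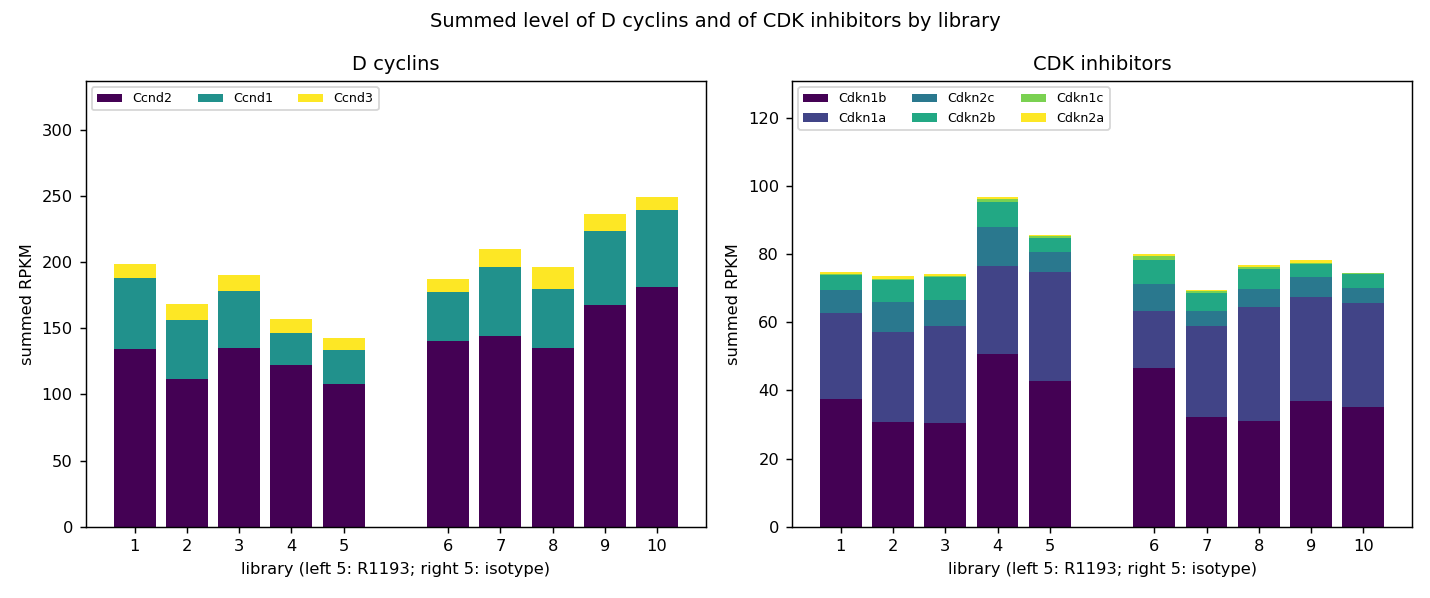
Summed RPKM (vertical axes, from 0) of the D cyclins (left panel) and the CDK inhibitors (right panel) in R1193 libraries 1 to 5 and isotype libraries 6 to 10, coloured by gene. D cyclin sums ran from 142 to 198 in R1193 and 187 to 249 in isotype libraries, and inhibitor sums from 73.5 to 96.9 in R1193 and 69.4 to 80.0 in isotype libraries.

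The 6 inhibitors summed to 81.0 ± 10.2 RPKM in R1193 and 75.7 ± 4.10 RPKM in isotype libraries (SD, n = 5 each). Cdkn2d, a further inhibitor of CDK4 and CDK6 listed with the CDK partners, was not part of this sum. It was at 5.59 ± 1.78 RPKM in R1193 and 6.10 ± 1.10 RPKM in isotype libraries (log2 difference -0.14, SE 0.19). In R1193 libraries Cdkn1b made up 47.1% ± 5.21 of the sum of the 6, Cdkn1a 34.4% ± 4.71, Cdkn2c 9.95% ± 2.07 and Cdkn2b 7.31% ± 1.76. In isotype libraries Cdkn1b made up 48.0% ± 6.42, Cdkn1a 36.5% ± 8.92, Cdkn2c 7.48% ± 1.49 and Cdkn2b 6.79% ± 1.67. Each share differed between the groups by less than its SD in isotype libraries, except that of Cdkn2c. The D cyclin sum divided by the inhibitor sum was 2.66, 2.29, 2.57, 1.62 and 1.66 in R1193 libraries 1 to 5, against 2.34, 3.03, 2.55, 3.02 and 3.35 in isotype libraries 6 to 10. R1193 libraries 4 and 5 had the lowest ratios of the 10, while libraries 1 and 3 lay above isotype libraries 6 and 8.

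Within the groups the genes did not vary as one block. After each group mean was subtracted, the Pearson r over 10 libraries was 0.82 between Men1 and Ccnd3, 0.76 between Cdkn1c and Cdkn2b, and 0.72 between Cdkn2b and Cdkn2c. It was -0.78 between Ccnd1 and Cdkn1c, -0.72 between Ccnd3 and Cdkn1b, and -0.71 between Ccnd1 and Cdkn1b. These pairs were picked from 36 after their values were seen, share the same libraries, and are given as a description.

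**Figure D4:**
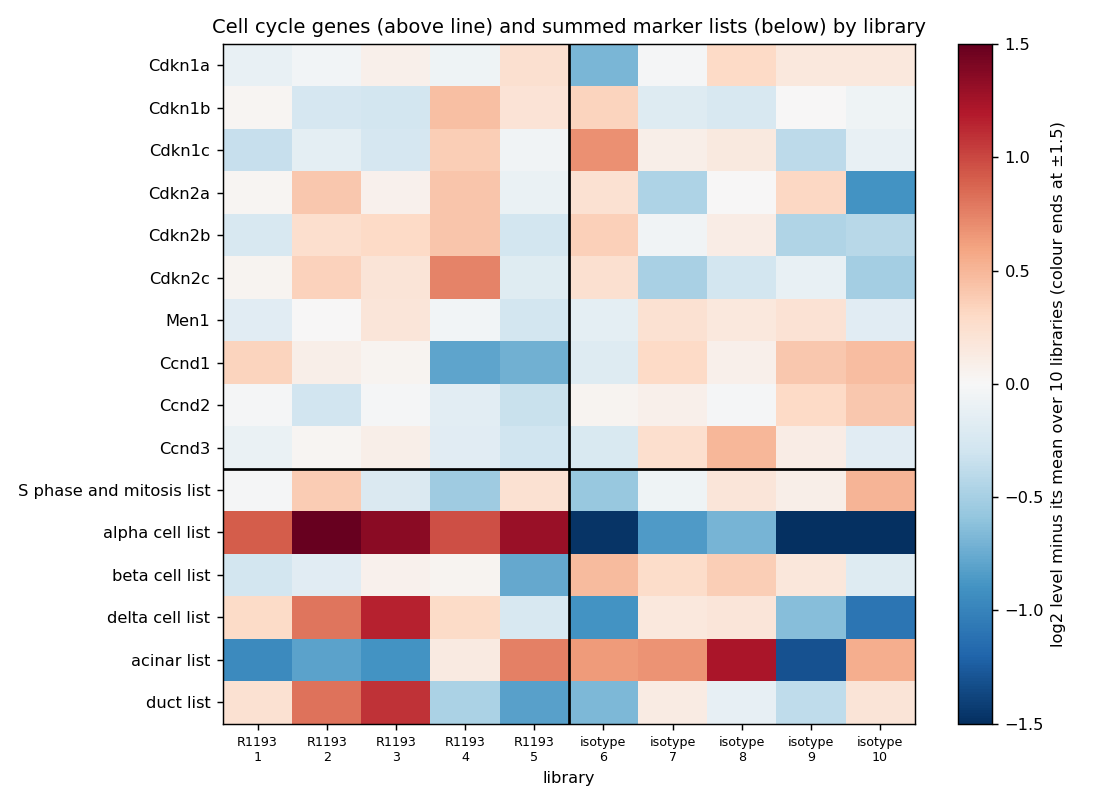
Log2 level minus its mean over the 10 libraries (colour, red higher and blue lower, ending at ± 1.5) for the 10 genes (above the line) and the summed RPKM of 6 marker lists (below). Columns are R1193 libraries 1 to 5 and isotype libraries 6 to 10. The alpha cell list separates the groups, while Ccnd1 is lowest in R1193 libraries 4 and 5.

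The genes whose pattern was most like that of the most abundant gene of each role were found by the same r over 10 libraries. For Cdkn1b they were Npnt (r 0.979), Acvr1c (0.976) and Klhl7 (0.972). For Cdkn2c they were Lrrc61 (0.969), Tmem50a (0.963) and Rab19 (0.957). For Men1 they were Cpn1 (0.984), Map1s (0.979) and Slc25a39 (0.976), and for Ccnd2 they included Lsm11 (0.962) and Snora65 (0.955). Lsm11 averaged 0.707 RPKM and Snora65 0.892 RPKM, near the minimum mean of 0.5 RPKM, so their patterns are uncertain. All the genes named here were among the 3 highest of 13450 genes for their gene, and the points share their libraries.

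The surrounding pathway was covered by 8 lists with 90 genes, of which 86 were tested and 0 passed over all genes. At an unadjusted limma p under 0.05, 1 was higher and 4 were lower, where 2.84% and 4.18% of all tested genes were. The lowest adjusted p was 0.353.

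Of 14 genes of the CDK partners and the RB-E2F step 0 passed in either direction, with a median log2 difference of -0.04. E2f1, an activating E2F, was at 4.44 ± 0.333 RPKM in R1193 and 3.67 ± 0.842 RPKM in isotype libraries (SD, n = 5 each; log2 difference 0.27, SE 0.15). E2f3, another activator, was at 0.29 (SE 0.20) and E2f5, a repressive member, at -0.18 (SE 0.11) on the same scale. Of the kinases that D cyclins bind, named outside the rule for pathway genes, Cdk4 was at 67.5 ± 10.1 RPKM in R1193 and 69.1 ± 6.47 RPKM in isotype libraries (SD, n = 5 each), and Cdk6 at 0.659 ± 0.251 RPKM in R1193 and 0.878 ± 0.531 RPKM in isotype libraries. Neither passed.

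Menin's partners in histone methylation showed no call among 8 genes (median -0.04). Wdr5, a core subunit, had a log2 difference of -0.21 (SE 0.13), Rbbp5, a neighbouring subunit, -0.14 (SE 0.11), and Jund, a transcription factor that menin binds, -0.14 (SE 0.17). The Polycomb genes that silence Cdkn2a had a negative difference in 9 of 9, none past the test, with a median of -0.09, where 66.5% of all tested genes were negative with a median of -0.07. After median centring 5 of the 9 were negative and the median was -0.014. Bmi1, a subunit that represses Cdkn2a, was at 21.1 ± 2.95 RPKM in R1193 and 25.7 ± 2.01 RPKM in isotype libraries (SD, n = 5 each; log2 difference -0.28, SE 0.11, limma adjusted p = 0.635). Ezh2, the methyltransferase, was at -0.39 (SE 0.19) and Ring1, a ubiquitin ligase, at -0.27 (SE 0.16).

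The p53 list held 13 genes, none past the test, with a median of 0.04. Ccng1, a p53 target that encodes cyclin G1, had 61.8, 54.4, 49.6, 57.5 and 55.4 RPKM in R1193 libraries 1 to 5, against 41.8, 40.5, 42.5, 38.1 and 55.9 RPKM in isotype libraries 6 to 10. The groups overlapped through isotype library 10 alone. Its log2 difference was 0.36 (SE 0.12, limma adjusted p = 0.454). Btg2, an antiproliferative p53 target, was at -0.49 (SE 0.26) and Bax, which promotes cell death, at 0.18 (SE 0.12).

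Of 9 genes of p27 and D cyclin turnover 0 passed, with Skp1a, a subunit of SCF ubiquitin ligases, at -0.25 (SE 0.13), Fbxo31, an F-box protein, at -0.21 (SE 0.19) and Rbx1, their RING subunit, at -0.11 (SE 0.11). Of 12 genes of mitogen inputs 11 had negative differences and 0 passed, with a median of -0.23. Over all tested genes 66.5% were negative, with a median of -0.07. After median centring 11 of the 12 were negative with a median of -0.15, where the median of all tested genes was 0.011. Smad3, which carries TGF-beta signals, was at 1.31 ± 0.342 RPKM in R1193 and 2.182 ± 0.889 RPKM in isotype libraries (SD, n = 5 each; log2 difference -0.53, SE 0.22). Stat5b, which acts below the prolactin receptor, was at -0.31 (SE 0.15) and Foxo1, a growth-restraining factor that insulin signals keep out of the nucleus, at -0.23 (SE 0.11).

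S phase and mitosis genes, which would mark cells in division, gave 0 calls among 13 tested, with a median of -0.07 and 8 negative differences. Over all tested genes 66.5% were negative, with a median of -0.07. The summed RPKM of the S phase and mitosis list was 53.2, 69.8, 46.1, 37.1 and 62.9 in R1193 libraries 1 to 5, against 36.1, 51.2, 60.6, 57.1 and 76.5 in isotype libraries 6 to 10. The groups covered the same range. Ccnb2, a mitotic cyclin, was at 0.581 ± 0.283 RPKM in R1193 and 1.003 ± 0.390 RPKM in isotype libraries (SD, n = 5 each). Cdk1 was at a log2 difference of -0.32 (SE 0.23) and the mitotic kinase gene Aurkb at -0.24 (SE 0.26). These were named for their small p. Aurkb averaged 0.445 RPKM in R1193 and 0.635 RPKM in isotype libraries, reaching the minimum mean of 0.5 RPKM only through the isotype group. The division marker Mki67 was at 3.02 ± 2.79 RPKM in R1193 and 2.14 ± 1.20 RPKM in isotype libraries (SD, n = 5 each). Its log2 difference was 0.24 (SE 0.43), and the groups overlapped.

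The neighbours of Cdkn1c in its imprinted region held the smallest p-values of the pathway lists, and 0 of 8 tested passed (median -0.24). Kcnq1, a potassium channel gene, had 0.234, 0.335, 0.416, 0.383 and 0.255 RPKM in R1193 libraries 1 to 5, against 0.961, 0.586, 1.05, 0.421 and 0.975 RPKM in isotype libraries 6 to 10. Igf2, which encodes a growth factor, had 1.22, 1.14, 1.43, 1.14 and 1.41 RPKM in R1193 libraries 1 to 5, against 2.02, 2.02, 1.64, 2.67 and 1.47 RPKM in isotype libraries 6 to 10. In both genes every R1193 library lay below every isotype library, by a narrow margin, as in 0.840% of all tested genes. Both were named for their small p. Kcnq1 averaged 0.325 RPKM in R1193 and 0.798 RPKM in isotype libraries. It thus reached the minimum mean of 0.5 RPKM only through the group where it was higher, and its separation, at levels near the floor, is a description only. Kcnq1 differed by -0.63 (SE 0.19, limma adjusted p = 0.353) and Igf2 by -0.46 (SE 0.15, limma adjusted p = 0.418) on the log2 scale. Igf2 lies next to the insulin gene Ins2, which averaged 198268 RPKM in R1193 and 271683 RPKM in isotype libraries. Any part of Ins2 reads in the Igf2 level was not tested. Slc22a18, an organic cation transporter gene, was at -0.62 (SE 0.30).

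**Figure D5:**
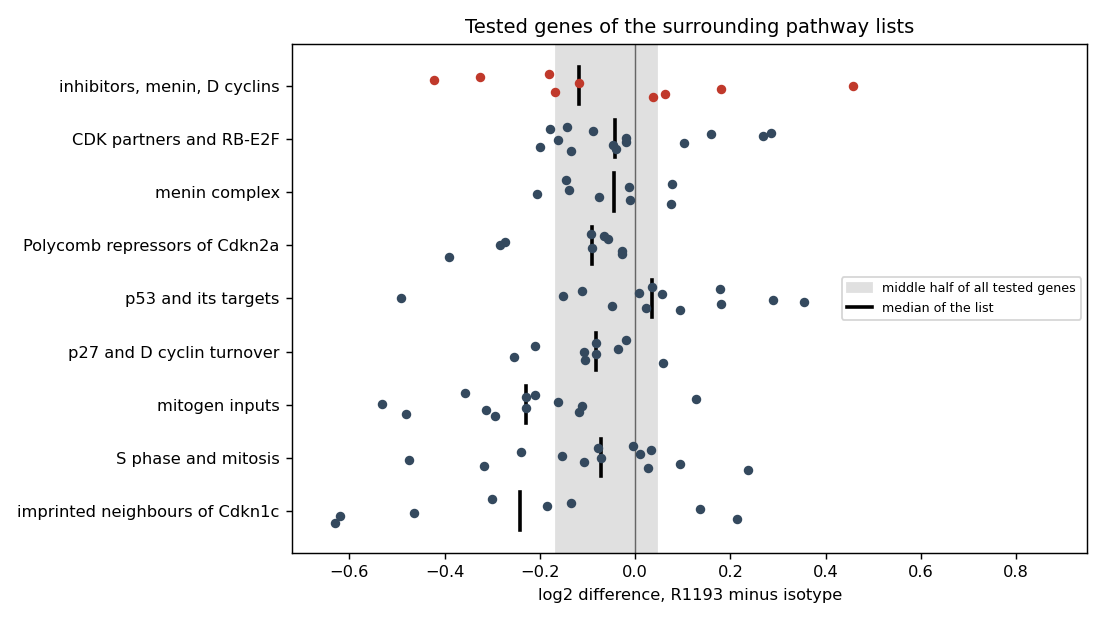
Log2 difference of R1193 minus isotype (horizontal axis) for every tested gene of the cell cycle genes (top, red) and of the 8 pathway lists; vertical bars are list medians and grey marks the quartiles of all tested genes. List medians ran from -0.24 for the neighbours of Cdkn1c to 0.04 for the p53 list.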

How the data were processed

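Polyadenylated RNA of mouse islets isolated on a density gradient was made into Nextera XT libraries, per the labels' protocols. The authors deposited 1 table of RPKM values, with 1 column per library and no counts. The submitters' processing notes name CASAVA 1.8.2, FastQC, GRCm38 and mm10; aligner, annotation and counting were not given in the sources used here. The 10 genes, the marker lists and the pathway lists were chosen with earlier results of these data known.

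R1193 was compared with isotype in limma 3.58.1 (R 4.3.3) on log2(RPKM + 0.5), with a variance trend, for the 13450 genes whose RPKM averaged 0.5 or more across all 10 libraries. Adding 0.5 understates the change of low genes. P-values were adjusted over all tested genes by the Benjamini-Hochberg method, with a threshold of 0.05. Single genes also had a two-sided exact permutation test over 252 assignments. The model was tested on simulated data before use. No covariate was used, and acinar and duct levels, scalings, filters, pseudocounts, array weights and left-out libraries were alternatives.

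All 10 genes were named, as were the 3 genes of each pathway list with the smallest limma p, the defining hormone genes, and for 1 gene of each role the 3 most alike in pattern, of which 1 is not reported here. Cdk4, Cdk6, Cdkn2d and Mki67 were named outside this rule. Depth was estimated from the steps of low values over 15621 genes with a single transcript length: 69.1% to 72.7% of low values lay within 0.1 read of a whole number, where 20% would by chance. The steps were too loose for counts to be recovered, so no count test was run and read numbers are estimates. RefSeq sequences are of GRCm38.p6, and the promoter table matched 7 of the 10 genes (all but Cdkn1c, Ccnd1 and Ccnd2).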

Additional observations from a re-analysis of the deposited data

Results flagged for a closer look

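In 2 of 68 groups of 5 libraries, 1 library stood far from the other 4, where chance gives about 1 in 20. E2f5 had 7.37 RPKM in R1193 library 1, and 6.33 to 6.57 RPKM in the other R1193 libraries. Ccng1 had 55.9 RPKM in isotype library 10, and 38.1 to 42.5 RPKM in the other isotype libraries. The cause was not tested in either.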

How the results depend on the processing

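None of the cell cycle or pathway genes that an alternative tested passed the adjusted threshold in any of the 24 alternatives. Among these the exact test per gene could not decide the question, since 0 of all tested genes passed it. The lowest adjusted p of a cell cycle gene was 0.0797, for Cdkn2c with array weights. Of 215 log2 differences of the 9 tested cell cycle genes under alternatives 205 kept their direction and 10 changed it. For Cdkn1a it was -0.034 with array weights, -0.15 with the beta cell covariate and -0.13 to 0.12 with 1 library left out. For Cdkn1b it was -0.0385 with array weights, -0.049 with the duct covariate and -0.041 to 0.16 with 1 library left out. Cdkn1c was at 0.0 with the acinar covariate and 0.064 with the beta cell covariate. That last covariate was chosen after seeing the data, and with it Men1 was at 0.035, E2f3 at -0.0475, Jund at 0.11, Fbxo31 at 0.29 and Stat5b at 0.0083. The cause was not tested.

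Over all genes, calls with R1193 higher numbered 53, against 121 with array weights, 28 with the beta cell covariate, 23 at a minimum mean of 5 RPKM, 0 with the exact test per gene, and 31 to 50 with 1 library left out. Calls with R1193 lower numbered 2, against 61 with array weights, 9 with the beta cell covariate, 4 with the acinar covariate, 5 with the duct covariate, 5 with quantile normalization, 5 without R1193 library 5 and isotype library 10, 1 without a variance trend, and 0 both at a minimum mean of 5 RPKM and with the exact test. With 1 library left out they numbered 0 to 20, 0 without R1193 library 1 and 20 without isotype library 6. Genes with an exact p under 0.05 numbered 1 of 10 (Ccnd2), 2 after median centring, and 1 to 2 with 1 library left out. Median centring moved the median difference of all tested genes by 0.08, and turned the split at an unadjusted limma p under 0.05 to 584 higher and 301 lower, against 382 and 562 unscaled. Quantile normalization gave 484 and 382, and trimmed mean scaling 487 and 390. No paired analysis was possible because the library numbers of the groups, 1 to 5 and 6 to 10, have none in common.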
